A study of Mus musculus with 4 samples.

Results

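Imprinted genes are genes that are transcribed mainly from the copy inherited from a single parent. Methylation laid down in the egg or the sperm makes the maternal and paternal copies differ. Most lie in clusters around an imprinting control region, where protein-coding genes and long noncoding RNAs share 1 switch. Many govern growth of the fetus and placenta, and several, above all those of the Snrpn-Ipw domain that is affected in Prader-Willi and Angelman syndromes, are expressed most strongly in neurons.

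The genes described here are 40 known imprinted mouse genes, taken by name from the array annotation. A transcript cluster (the probe set for 1 transcript on this array) counted when its annotation gave exactly 1 gene symbol, and clusters of the same gene were averaged. By that rule 36 of the 40 were measured, out of 22180 named genes in all, 33 of them by 1 cluster and Nnat, Plagl1 and Ube3a by 2. Snrpn, Mirg, Rtl1 and H19 had only clusters that carry several gene names, and are not analysed here. None of the 18 clusters with a member's name among several was at least 2-fold different in either tissue.

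The study measured total RNA on 4 Affymetrix Mouse Gene 2.0 ST arrays. Embryos were of a mixed C57BL/6J x FVB/N background and either wild type or knockout for Tbx1, a T-box transcription factor of the pharyngeal region. Wild-type head and Tbx1 knockout head were taken at E12.5, and wild-type and knockout palatal shelves, the outgrowths that form the roof of the mouth, at E13.5. Each of the 4 groups is 1 array, the labels do not say whether embryos were pooled or which part of Tbx1 was removed, and the shelves differ from the head in stage as well as in tissue. Arrays read the sum of both parental alleles, so a change in level and a change in imprinting cannot be told apart here.

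Values are log2 expression made by the authors with RMA, a method that gives all arrays the same overall distribution, so a shift shared by most genes is not visible. A difference is knockout minus wild type on the log2 scale, where 1 is 2-fold. To enter a comparison, a gene had to reach 6.16 on at least 1 of the 2 arrays compared, which is the median level of named genes. Folds of genes near or under that level are compressed. With 1 array per group, differences within a tissue have no replicate check and no p-value, and precision is limited by how few arrays there are. In bulk tissue, fewer cells of a type and less RNA per cell cannot be told apart.

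The labels were checked against marker genes. Tbx1 was 1.49-fold lower in the knockout head and 2.32-fold lower in the knockout shelves. Of 8 measured genes of palatal mesenchyme, 7 were higher in wild-type shelves than in wild-type head (Tbx22, a T-box gene mutated in cleft palate, at 7.91 and 6.57), and all 18 neuronal markers were lower there. All 5 measured epithelial markers were higher in the shelves.

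Sequences beside the annotated starts of 4 members whose levels differed in the knockout shelves are shown here. Imprinting acts on CG dinucleotides, the sites of DNA methylation, which are in capitals. Sequences are RefSeq's, on build GRCm38.p6, 5′ to 3′ on the strand named. The first is the whole strip between the outermost annotated ends of Peg3 and Usp29, 96 bases between 2 genes that face away from each other (chr7:6730463-6730558, plus strand, intergenic). The others are the 250 bases before the outermost listed start of Ipw (chr7:59678879-59679128, minus strand), of Calcr (chr6:3764714-3764963, minus strand) and of Nnat (chr2:157559828-157560077, plus strand, inside Blcap). Ipw lies inside Snhg14, a longer RNA gene on the same strand, and the bases before it were not shown to be a promoter.
Peg3-Usp29 strip: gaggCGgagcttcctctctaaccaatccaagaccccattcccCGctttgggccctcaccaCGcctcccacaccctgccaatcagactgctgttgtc
Ipw: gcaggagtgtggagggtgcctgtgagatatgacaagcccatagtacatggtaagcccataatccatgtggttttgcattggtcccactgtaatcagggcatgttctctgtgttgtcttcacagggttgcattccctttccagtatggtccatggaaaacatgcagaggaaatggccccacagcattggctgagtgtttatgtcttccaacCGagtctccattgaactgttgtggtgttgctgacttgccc
Calcr: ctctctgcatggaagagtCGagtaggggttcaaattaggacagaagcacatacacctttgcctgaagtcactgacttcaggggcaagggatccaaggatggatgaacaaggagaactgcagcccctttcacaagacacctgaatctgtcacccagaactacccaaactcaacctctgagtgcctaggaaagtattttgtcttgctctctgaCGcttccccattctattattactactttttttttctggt
Nnat: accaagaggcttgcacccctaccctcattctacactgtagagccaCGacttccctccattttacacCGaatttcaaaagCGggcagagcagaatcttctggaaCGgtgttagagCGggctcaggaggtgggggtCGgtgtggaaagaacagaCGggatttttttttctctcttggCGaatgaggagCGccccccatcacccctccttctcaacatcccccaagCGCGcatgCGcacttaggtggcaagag
The 4 stretches do not share a CG content. The Peg3-Usp29 strip held 3 CG in 96 bases, Ipw 1 in 250, Calcr 2 in 250 and Nnat 12 in 250. At its other annotated start, further into the gene, Calcr had 24 CG in the 250 bases before it. Of the 40 members, 32 have a start in this table, and the 250 bases before the start that the table lists first (for Calcr, the one further into the gene) held a median of 10 CG (from 0 to 40), against a median of 6 over all 27025 genes. Methylation was not measured in this study.

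In the E12.5 head, imprinted genes hardly differed between knockout and wild type. Of the 36 measured members, 17 were above 0 and 19 below, with a median difference of -0.013 against 0.0089 over all named genes. None of the 31 that entered was at least 2-fold higher or lower, a fold that 0.0352% of all 11364 entering genes reached upward and 0.0528% downward. The member with the highest difference was Ipw, at 0.31, and the one with the lowest was Plagl1, at -0.67.

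Plagl1 encodes a zinc-finger factor that restrains growth, and its 2 clusters disagreed. The bright cluster read 9.83 in wild-type head, 9.79 in knockout head, 10.40 in wild-type shelves and 10.54 in knockout shelves. The dim cluster read 4.45, 3.16, 3.98 and 4.66 in the same order, under the limit for entry on every array. The low mean of Plagl1 in the knockout head therefore came from the dim cluster, with a difference of -1.29, whereas the bright cluster differed by -0.04.

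In the E13.5 palatal shelves, 31 of the 36 measured members were higher in the knockout array and 5 lower, with a median difference of 0.12, against -0.0068 and 48.6% above 0 over all named genes. Over all entering genes, 55.2% were above 0 with a median of 0.021, against 29 of 31 entering members. Many of the member differences were smaller than the SD between clusters of the same gene in the shelves (0.221). Among members that entered, 4 of 31 were at least 2-fold higher, a fold that 0.463% of all 11449 entering genes reached. These were Ipw, Usp29, Calcr and Ube3a, in domains of chromosomes 7 and 6. No member was at least 2-fold lower, where 0.472% of all entering genes were. Ipw, Calcr, Magel2 and Meg3 lay under the limit for entry in the wild-type shelves and entered through the knockout array. Each of them was thereby bound to be above 0, so the counts over entering members are a description only.

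**Figure D1:**
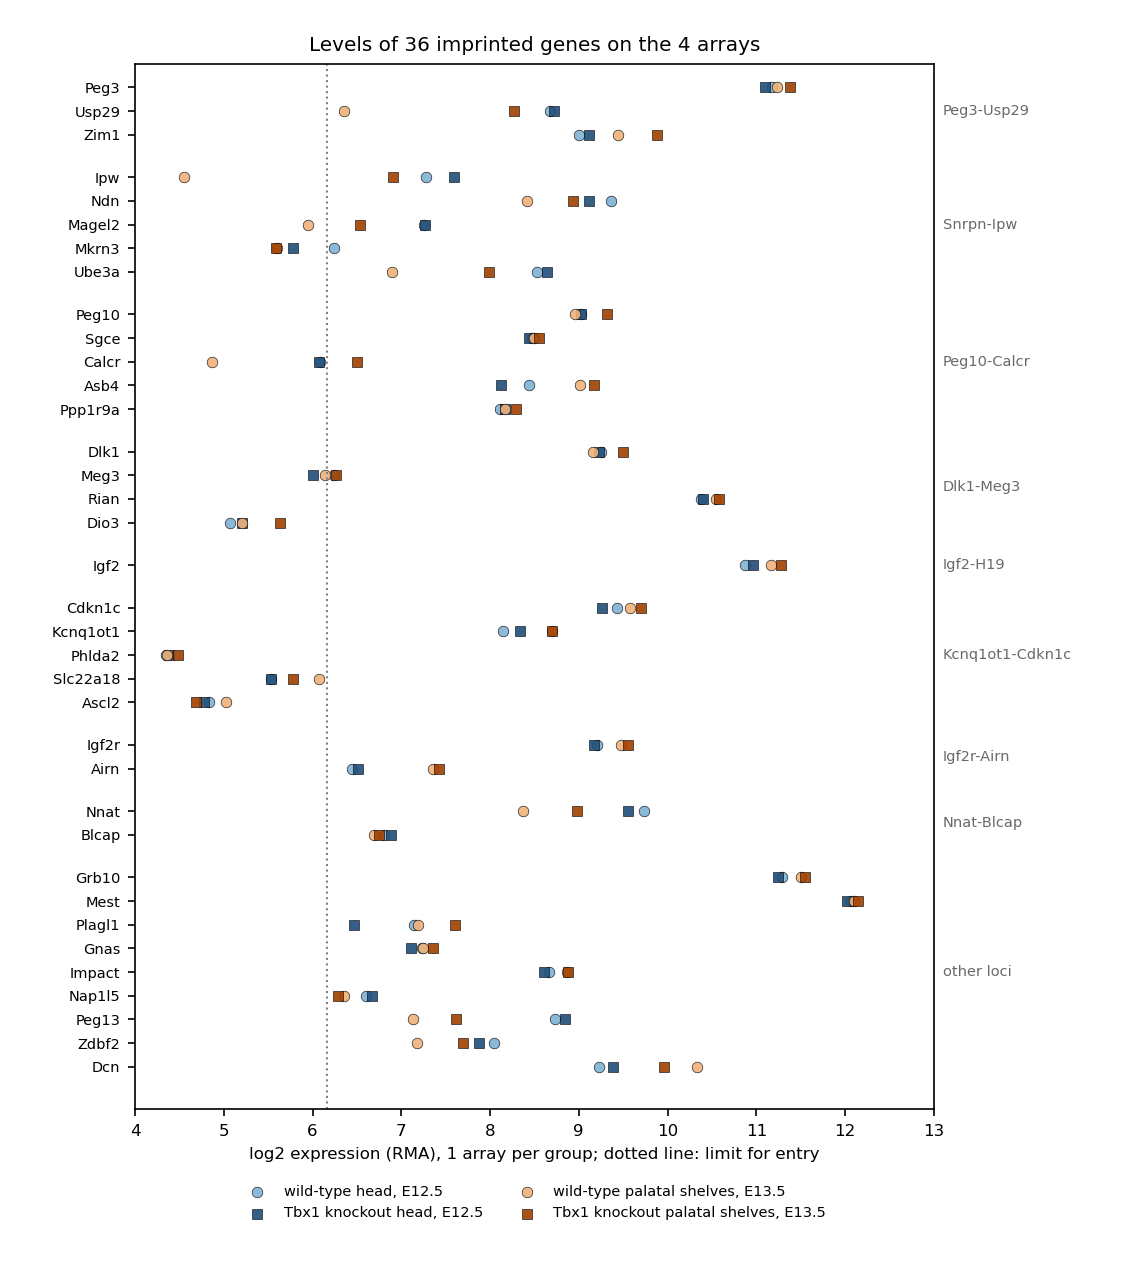
Level (log2 RMA expression, horizontal axis) of each of the 36 measured imprinted genes, ordered by domain, on the wild-type and knockout arrays of head and palatal shelves; each symbol is 1 array and the dotted line is the limit for entry at 6.16. Most rows are tight, while Usp29, Ipw, Ube3a and Calcr have a wild-type shelf value far to the left of the other 3 arrays.

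The Snrpn-Ipw domain on chromosome 7 held the member with the greatest difference. Ipw, a noncoding RNA made from the paternal chromosome, read 7.28 in wild-type head, 7.59 in knockout head, 4.55 in wild-type shelves and 6.91 in knockout shelves. The wild-type shelf array was thus the low one, and the knockout shelf array lay between it and both heads. Ipw was 5.11-fold higher in the knockout shelves, the 3rd highest of all entering genes, and 1.24-fold higher in the knockout head.

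The noncoding transcripts Snhg14 and Gm26504 of the domain were likewise lowest in wild-type shelves, and next lowest in knockout shelves. Not all followed this order, and the microRNA gene Mir344 was lowest in wild-type shelves (6.58) but highest in knockout shelves (6.93). Snhg14, the long host RNA of the domain's small nucleolar RNAs, which contains Ipw in the RefSeq table, read 8.65, 8.85, 6.52 and 7.34 in wild-type head, knockout head, wild-type shelves and knockout shelves. Gm26504, which RefSeq lists as a small nucleolar RNA in this domain, read 11.31, 11.27, 7.06 and 10.06. Its difference of 3.0 in the shelves was the highest of all entering genes. It is a predicted gene, named after its values were seen, and its 15 clusters carry identical values, so they count as 1 measurement. Between the outermost members of the domain 17 other genes were measured, of which 13 were above 0 in the shelves, and at least 2-fold only Gm26504.

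Ube3a, the ubiquitin ligase whose maternal copy is lost in Angelman syndrome, had 2 clusters that disagreed. The bright cluster read 9.03 in wild-type head, 9.03 in knockout head, 8.89 in wild-type shelves and 8.94 in knockout shelves. The other cluster read 8.03, 8.25, 4.91 and 7.05. Only the second differed in the knockout shelves, by 2.15 (4.42-fold) against 0.05. In the RefSeq table Snhg14 runs over part of Ube3a on the opposite strand, and the strand that each cluster reads was not known here. The 2.14-fold difference of the averaged gene therefore cannot be assigned to Ube3a. With the brightest cluster only, 3 members in place of 4 were at least 2-fold higher.

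The protein-coding genes of the domain differed less. Necdin (Ndn), a MAGE-family protein of postmitotic neurons, read 9.36, 9.11, 8.42 and 8.94 in wild-type head, knockout head, wild-type shelves and knockout shelves. Magel2, a MAGE-family protein that regulates endosomal protein recycling, read 7.26, 7.27, 5.95 and 6.53. Both were lowest in wild-type shelves, and the shelf differences were 0.52 for Ndn and 0.58 for Magel2. In the shelves Magel2 passed the limit for entry on the knockout array alone. Mkrn3, a makorin-family ligase known as a brake on puberty, read 6.24, 5.78, 5.60 and 5.59, under the limit for entry on all arrays but wild-type head, and differed by -0.01 in the shelves. Over the 5 measured members the median shelf difference was 0.58, against 0.016 in the head.

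**Figure D2:**
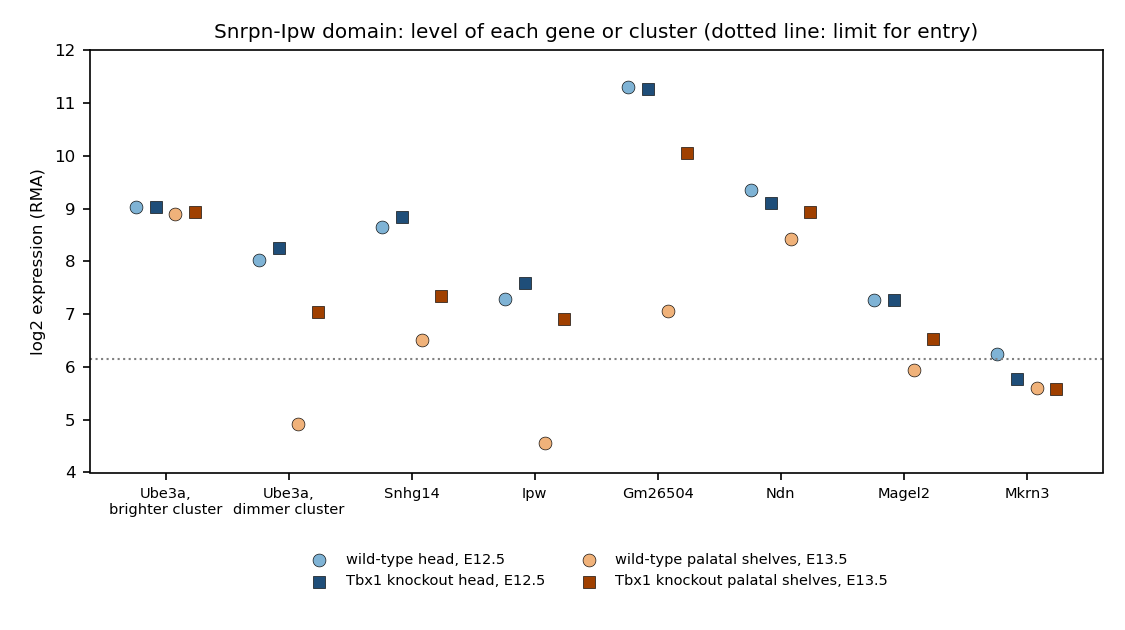
Level (log2 RMA expression, vertical axis) of genes and clusters of the Snrpn-Ipw domain on the 4 arrays, with the 2 clusters of Ube3a drawn apart; each symbol is 1 array and the dotted line is the limit for entry at 6.16. Ipw, Snhg14, Gm26504 and the dimmer Ube3a cluster were lowest in wild-type shelves, whereas the brighter Ube3a cluster read between 8.89 and 9.03 everywhere.

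In the Peg3-Usp29 domain, 2 genes whose annotated ends lie 96 bases apart had different patterns over the arrays. Usp29, a ubiquitin-specific protease family gene, read 8.68 in wild-type head, 8.72 in knockout head, 6.35 in wild-type shelves and 8.27 in knockout shelves. It was 3.80-fold higher in the knockout shelves, the 5th highest of all entering genes, and differed by 0.04 in the head. Peg3, a paternally expressed zinc-finger protein, read 11.18, 11.10, 11.23 and 11.38, a shelf difference of 0.15. Zim1, a maternally expressed zinc-finger gene next to Peg3, read 9.0, 9.11, 9.44 and 9.88, with its highest level in knockout shelves and a difference there of 0.45. The strip between Peg3 and Usp29 printed above is thus flanked by a gene that was nearly level on the 4 arrays and by 1 that was low in wild-type shelves alone.

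The Peg10-Calcr domain on chromosome 6 was likewise split. Calcr, the calcitonin receptor, whose imprinting is known from brain, read 6.09 in wild-type head, 6.07 in knockout head, 4.87 in wild-type shelves and 6.50 in knockout shelves. It was 3.10-fold higher in the knockout shelves, and that array lay above both heads, unlike Ipw and Usp29. Only the knockout shelf array passed the limit for entry.

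The other members of that domain stayed within 1.5-fold. Peg10, a gene derived from a retrotransposon and needed for the placenta, differed by 0.36 in the shelves. Sgce, the epsilon-sarcoglycan gene beside it, differed by 0.06, and neurabin (Ppp1r9a), an actin-binding scaffold of neurons, by 0.12. Asb4, an ankyrin-repeat adaptor of ubiquitin ligases, read 8.44, 8.12, 9.01 and 9.17, so that it was higher in both shelf arrays than in both heads, and its genotype differences were -0.32 in head and 0.16 in shelves. Between the outermost genes of the domain 11 others were measured, and 3 of them were above 0 in the shelves. At least 2-fold lower there was 1 of them, which lay under the limit for entry on all arrays.

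The Nnat-Blcap pair is nested, with Nnat lying inside Blcap in the RefSeq table. Neuronatin (Nnat), a small membrane protein of developing brain, read 9.73 in wild-type head, 9.56 in knockout head, 8.37 in wild-type shelves and 8.98 in knockout shelves. Its 2 clusters differed by 0.73 and 0.50 in the shelves, and by 0.04 and -0.39 in the head. Blcap, the host gene, read 6.80, 6.88, 6.69 and 6.75, level on all 4 arrays. Nnat was the only member besides the 4 named above to pass 1.5-fold upward in the shelves, where 1.91% of entering genes did. No member passed it downward, where 1.34% of entering genes did.

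**Figure D3:**
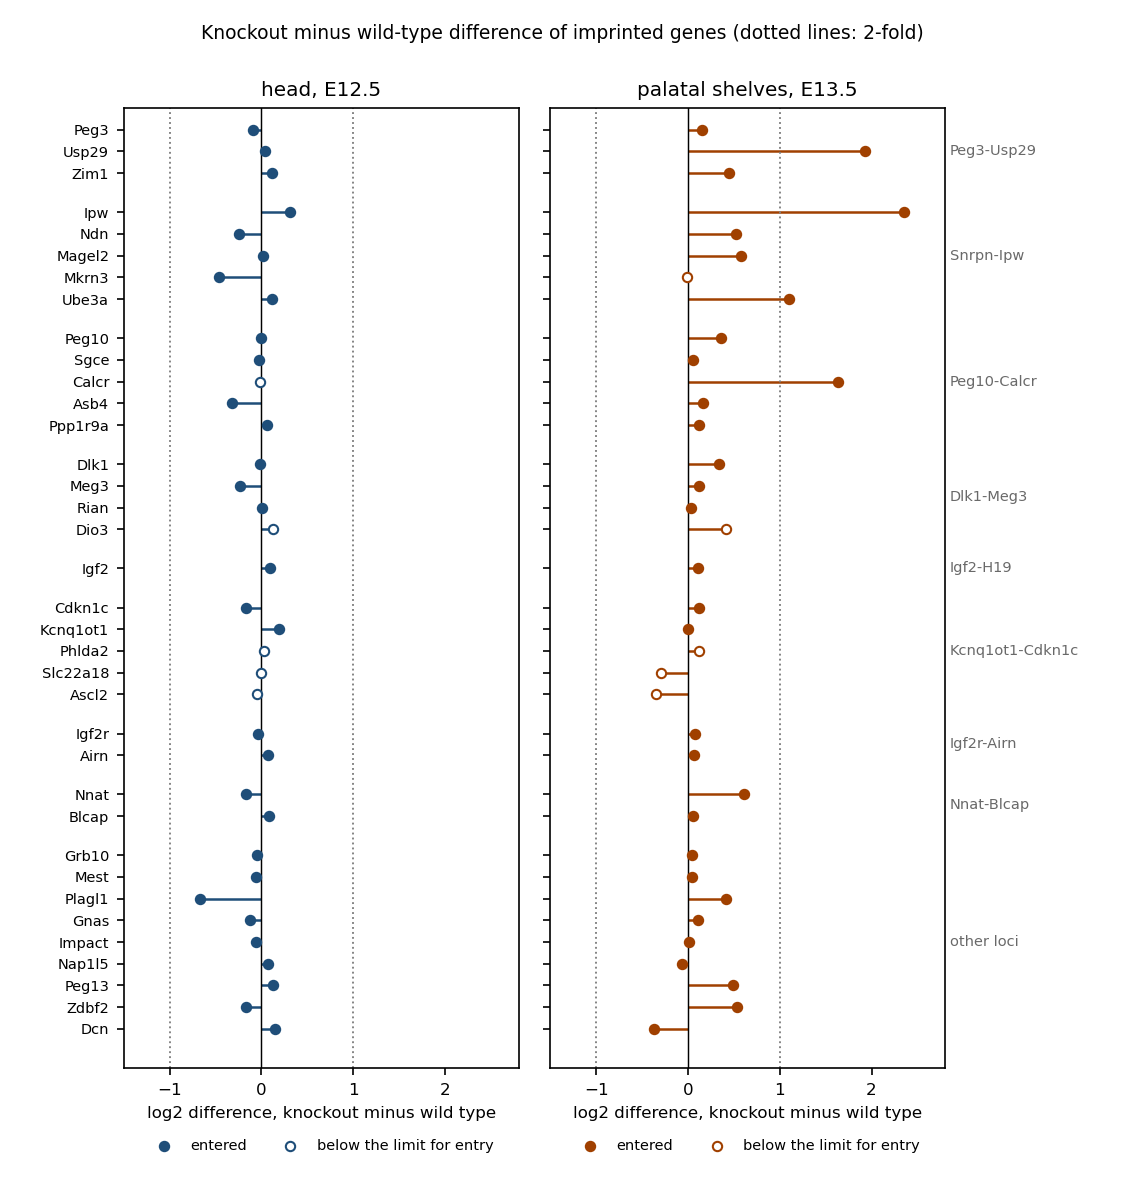
Knockout minus wild-type log2 difference (horizontal axis) of each measured imprinted gene in head and in palatal shelves, ordered by domain; each point is 1 gene from 1 pair of arrays, open points lie under the limit for entry, and dotted lines mark 2-fold. In the head all points lie between -0.67 and 0.31, and in the shelves 4 lie beyond 2-fold on the high side.

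In the domains of Igf2, Cdkn1c and Igf2r, which control fetal growth, the members that passed the limit for entry differed by at most 0.19 with genotype in either tissue. Igf2, the fetal growth factor, read 10.87 in wild-type head, 10.96 in knockout head, 11.17 in wild-type shelves and 11.28 in knockout shelves. Igf2r, the receptor that clears IGF2 for breakdown, differed by -0.04 in head and 0.08 in shelves. Airn, the antisense noncoding RNA that silences the paternal Igf2r, differed by 0.07 in each. Cdkn1c, a cyclin-dependent kinase inhibitor, differed by -0.17 and 0.12, and Kcnq1ot1, the noncoding RNA that silences it on the paternal chromosome, by 0.19 and 0.00. The remaining genes of that domain, Phlda2, Slc22a18 and Ascl2, known mainly from placenta, were under the limit for entry on all arrays, with shelf differences of 0.12, -0.29 and -0.35. Between Igf2 and H19, 2 other genes were measured, and both were below 0 in the shelves. Mir483, a microRNA gene within Igf2, read 6.97 in wild-type head, 7.36 in knockout head, 7.62 in wild-type shelves and 6.99 in knockout shelves, a difference of 0.39 in head and -0.63 in shelves. Igf2os, an antisense RNA of Igf2, differed by -0.25 and -0.10. Of 7 other genes measured in the Kcnq1ot1-Cdkn1c domain, 6 were above 0 in the shelves, and none reached 2-fold.

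In the Dlk1-Meg3 domain on chromosome 12 the difference was also small. Dlk1, a transmembrane relative of Notch ligands, read 9.25, 9.23, 9.16 and 9.50 in wild-type head, knockout head, wild-type shelves and knockout shelves. The maternally expressed noncoding RNAs Meg3 and Rian differed by 0.12 and 0.03 in the shelves. There Meg3 passed the limit for entry on the knockout array alone (6.14 in wild type and 6.26 in knockout). Dio3, which inactivates thyroid hormone, was under the limit for entry, with 5.21 in wild-type and 5.63 in knockout shelves. Of 51 other genes measured between the outermost members, nearly all for microRNAs and small nucleolar RNAs, 33 were above 0 in the shelves and none reached 2-fold. Mir494 had the highest difference among the entering ones, 0.52, and entered through the knockout array alone (5.95 in wild-type and 6.46 in knockout shelves).

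Among the single loci, 2 paternally expressed genes were higher and 1 gene lower in the knockout shelves by over 0.3 on the log2 scale in single clusters. Zdbf2, a zinc-finger gene known for a role in hypothalamic feeding circuits, read 8.05, 7.88, 7.18 and 7.70 in wild-type head, knockout head, wild-type shelves and knockout shelves. Peg13, a noncoding RNA transcribed from the paternal copy in brain, read 8.73, 8.85, 7.13 and 7.62. Both had their lowest level in wild-type shelves. Decorin (Dcn), a collagen-binding proteoglycan of connective tissue, read 9.23, 9.39, 10.33 and 9.96, with its highest level in wild-type shelves, and was 1.29-fold lower in knockout shelves.

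The other single loci were nearly level with genotype. Mest, a paternally expressed gene of mesenchyme, differed by -0.06 in head and 0.05 in shelves. Grb10, an adaptor that restrains insulin and IGF signalling, differed by -0.05 and 0.04. Gnas, the stimulatory G protein subunit gene, differed by -0.12 and 0.11, Impact, a translational regulator, by -0.06 and 0.01, and Nap1l5 by 0.07 and -0.06.

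Members were also counted by the allele they are known to be expressed from. In the shelves, 18 of 20 measured paternally expressed genes were above 0, with a median of 0.35, and 9 of 11 maternally expressed genes, with a median of 0.12. In the head the counts were 9 of 20 and 5 of 11. No test of the difference between these classes was made, and the genes of a domain are not independent of each other.

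Over both tissues, no member passed the test for genotype. One additive limma fit over 11999 genes, with genotype and tissue as terms and 1 residual degree of freedom, tested 32 members. None of these, and 0% of all genes, reached an adjusted p of 0.05. At an unadjusted limma p under 0.05 there were 4 members (Ipw, Usp29, Ube3a and Peg13), where 5.23% of all genes were. Ipw had an estimate of 1.33 (SE 0.41) with a limma adjusted p of 0.919, since its difference was 0.31 in one tissue and 2.35 in the other. With a mean-variance trend in limma, 11 genes passed, none of them a member. Whether a difference in the shelves differs from that in the head could not be tested with 1 array per group. The error in this fit comes from how far the genotype difference of a gene disagrees between tissues, moderated over all genes. A gene that differs in 1 tissue only thus widens its own error, and the fit cannot decide on it.

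Between the tissues, the same limma fit called 11 of 32 members (34.4%) at an adjusted p of 0.05, where it called 27.9% of all genes. At an unadjusted limma p under 0.05 there were 20 of 32 members, where 40.2% of all genes were. Of the 11 members called, Peg13, Magel2, Nnat, Ipw, Usp29 and the mean of the 2 Ube3a clusters were lower in the shelves. The bright Ube3a cluster read 9.03 in wild-type head and 8.89 in wild-type shelves, and the other 8.03 and 4.91. That call therefore cannot be assigned to Ube3a. Higher in the shelves were Airn, Asb4, Dcn, Zim1 and Kcnq1ot1. Peg13 had a shelf minus head estimate of -1.41 (SE 0.12, limma adjusted p 0.000426) and Airn one of 0.91 (SE 0.10, limma adjusted p 0.00101).

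In single pairs of arrays the size of this tissue difference was not the same in both genotypes, which was not tested. For Ipw, shelves minus head was -2.72 in wild type and -0.68 in knockout. For Usp29 it was -2.34 and -0.45, and for Peg13 -1.59 and -1.23. Airn was higher in the shelves by 0.91 in both genotypes. Ipw and Usp29 have the greater spread in the fit, and both lost the call under some settings (limma adjusted p up to 0.267 and 0.301), as did Ube3a (limma adjusted p up to 0.4) and Kcnq1ot1 (limma adjusted p up to 0.0734). The knockout-minus-wild-type and the shelf-minus-head differences use the same wild-type shelf array, so no relation between them is given.

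Most neuronal markers were higher in the knockout shelves along with these members, by unequal amounts. Of 18 neuronal markers, 16 were above 0 in the shelves and 2 below, with a median of 0.52. Among the 16 that entered, differences ran from -0.28 to 1.48. At least 2-fold higher were 3 of them, where 0.463% of all entering genes were. These included Ina, a neuronal intermediate filament (8.54 in wild type and 10.02 in knockout), and Gad2, an enzyme of GABA synthesis (5.58 and 6.69). Gad2 entered through the knockout array alone. The summed linear level of the 18 markers was 18507 in wild-type head, 18614 in knockout head, 3983 in wild-type shelves and 5776 in knockout shelves. The lowest reading of any of the 18 was 5.35, under the limit for entry, and whether the dimmest of them were above background was not tested. Of 8 measured hypothalamic and ventral forebrain factors 6 were above 0 in the shelves, with Six6 at 1.17, Sim1 at 1.02 and Nkx2-1 at 0.94. Six6, Sim1 and Nkx2-1 lay under the limit for entry in the wild-type shelves (5.68, 5.15 and 5.33) and entered through the knockout array. Below 0 were 2 factors, the lowest at -0.21. The summed linear level of the 8 was 379 in wild-type and 537 in knockout shelves, 681 and 773 in the heads. In the head the neuronal markers had a median of 0.0079. The part of neuronal tissue in the differences of the imprinted genes was not tested.

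Other marker lists also differed between the arrays of a pair. Skeletal muscle genes were lower in all 11 cases in the shelves (median -1.29) and in the head (median -0.68), and hypoxia targets were higher in 8 of 8 cases in the shelves (median 0.90, with Bnip3 at 1.38), against a median of 0.15 in the head. Palatal mesenchyme genes had a shelf median of 0.15, oral epithelium -0.091, endothelium 0.19, macrophages -0.23 and erythroid cells -0.029. In the head these medians were 0.037, 0.06, 0.058, -0.11 and -0.36. The part of these shifts in the results was not tested.

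**Figure D4:**
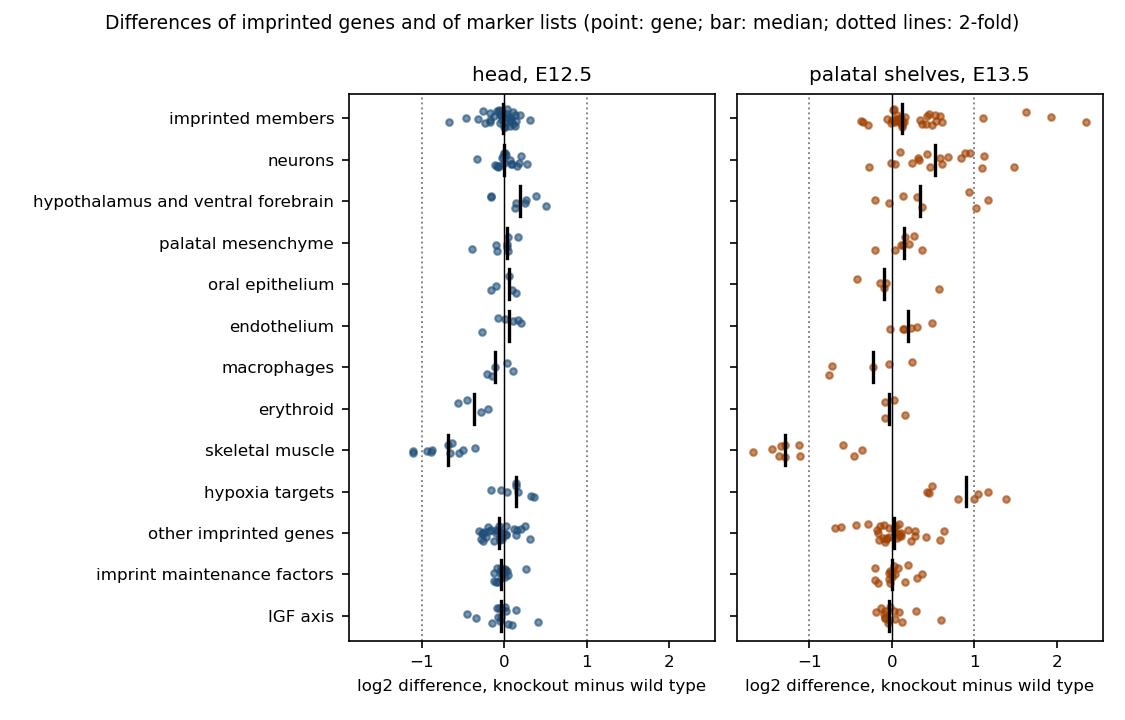
Knockout minus wild-type log2 difference (horizontal axis) of the imprinted genes and of each marker or pathway list in head and in palatal shelves; each point is 1 measured gene, black bars are medians and dotted lines mark 2-fold. In the shelves the median is 0.12 for imprinted genes, 0.52 for neuronal markers, 0.90 for hypoxia targets and -1.29 for skeletal muscle genes.

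Imprinted genes outside the list lay about evenly on both sides of 0 in the shelves. Of 31 further imprinted genes that were measured, 16 were above 0 and 15 below in the shelves, with a median of 0.024, and 9 were above 0 in the head. None of those that entered was at least 2-fold different in either tissue. Inpp5f, an inositol phosphatase gene with a paternally expressed brain transcript, had the greatest shelf difference among those that entered, with 7.08, 6.79, 6.51 and 7.09 in wild-type head, knockout head, wild-type shelves and knockout shelves.

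Genes that maintain imprints and genes of the IGF pathway had medians near 0 with genotype, while single genes differed more. Of 16 imprint maintenance factors, 8 were above 0 and 8 below in the shelves, with a median of 0.00069. Tet1 and Tet2, dioxygenases that oxidise methylcytosine, had the greatest shelf differences of the list, 0.37 and 0.31. Of 15 measured IGF pathway genes 6 were above 0 in the shelves with a median of -0.029, and Pappa2, a protease that frees IGF from its binding proteins, had the greatest difference, 0.59. In the head the medians were -0.033 for imprint maintenance factors and -0.043 for IGF pathway genes. Among the IGF pathway genes that entered, Pappa had the greatest head difference, 0.41.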

How the data were processed

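Log2 expression values per transcript cluster were deposited by the authors; the submitters' processing notes name Expression Console and RMA. The sources used here give no version, genome build or annotation. Groups came from the sample titles; 1 other label field calls the E13.5 samples heads. Of 41345 clusters, 23521 carried 1 gene symbol, 1814 several and 16010 none, and only the first kind was used. By Entrez identifier, 23328 of these were found in RefSeq's genes (GRCm38.p6), and 0 symbols changed. Clusters of a gene were averaged. Differences within a tissue carry no test. The additive fit used limma 3.58.1 in R 4.3.3 (lmFit, eBayes, Benjamini-Hochberg adjustment over all entering genes). It was tested on simulated data with differences planted in both tissues. Its error comes from how far the genotype difference of a gene disagrees between head and shelves, moderated over all genes. The p-values therefore do not measure the spread between embryos. The members, gene lists and tests were chosen with earlier results of these data known. All members were named; of other lists and of genes between members, counts and at most 4 entering genes per tissue with the greatest difference were given, and predicted genes only where a result turned on them. Alternatives were other array scaling, the brightest cluster of a gene, other limits for dim genes, 1.5-fold, and 2 other priors in limma.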

Additional observations from a re-analysis of the deposited data

Results flagged for a closer look

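Ndn and Plagl1 had opposite signs in the 2 tissues, each by more than the SD between clusters of the same gene on these arrays (0.177 in the head and 0.221 in the shelves). That SD was taken between clusters on the same arrays, and whether such clusters read the same transcript was not known. It does not measure the spread between embryos. For Ndn, knockout minus wild type was -0.25 in head and 0.52 in shelves, and for Plagl1 -0.67 and 0.41. The difference between the tissues was not tested. For Plagl1 the bright cluster alone differed by -0.04 and 0.14.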

How the results depend on the processing

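At 1.5-fold, 1 member (Plagl1) was lower in the head, against 0 at 2-fold. With the upper-quartile limit for dim genes (7.79), 2 members (Ube3a and Usp29) were at least 2-fold higher in the shelves, against 4, because Ipw and Calcr no longer entered. The Snrpn-Ipw shelf median over entering members was 0.84; taking only the brightest cluster per gene it was 0.55, and 0.58 without a limit for dim genes; that of Nnat-Blcap was 0.34, and 0.61 with the upper-quartile limit. Members called between tissues were 11, and 18 with a mean-variance trend in limma. The other 140 values for counts, medians and calls kept within 1.5 times (counts) or within the cluster disagreement (medians). Members above 0 in the shelves were 32 of 36 with centred arrays and 30 after quantile normalization again; in the head they were 14 and 19. After the data were seen, counts without Ube3a and with the dimmest cluster of a gene were added. Leaving out 1 array leaves no residual degree of freedom, so the values of each tissue alone stand in for it. No paired analysis was possible because the labels give 1 sample per group.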
